A study of Mus musculus with 2 samples.

Results

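The genes described here are those of the cytosolic ribosomal proteins, measured in BCR-ABL-expressing Ba/F3 cells under imatinib, in 1 array of cells supplied with the growth factor interleukin-3 (IL-3) and 1 array of cells lacking it. Members were taken by symbol, from probe sets that name a single gene whose symbol begins with Rpl or Rps and a digit, or with Rplp and a digit, or is Rpsa, leaving out the Rps6k kinases and symbols marked as pseudogenes. This gave 63 genes of 19935, represented by 218 probe sets. Of several probe sets for a gene, that with the highest average over the arrays was used. Of the 63 symbols, 54 name the established proteins of the small and large subunits, and 9 name paralogs, retrogene products or a binding protein. A further 20 symbols of the family occur only on probe sets that list several genes, and their genes are not named here.

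The murine line Ba/F3 resembles early B-lineage cells and needs IL-3 to live, a need that BCR-ABL, the kinase made by the chromosome fusion of chronic myeloid leukaemia, removes. Both arrays carried RNA of cells that constitutively express BCR-ABL, grown in RPMI medium with 10% serum and treated with imatinib, an ABL kinase inhibitor, at 5 µM for 6 h, the unit being read as micromolar. The compared samples are titled as live cells with and without IL-3, and per the series' design text the former resist imatinib and the latter undergo apoptosis. The title and source name of the first array give IL-3 but its description says that the cells grew without it, and the source name of the second can be read as also lacking imatinib, so the direction of every difference below rests on the titles.

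Cytosolic ribosomes consist of a small subunit, which reads the mRNA, and a large subunit, which joins amino acids, each built of ribosomal RNA and many proteins. Mammalian ribosomal protein mRNAs begin with a run of pyrimidines, the terminal oligopyrimidine (TOP) tract, through which the kinase complex mTORC1 and the protein LARP1 control their translation, so their output is regulated to a large degree after transcription. Growth factor signalling and MYC are known to raise ribosome production. Ribosomal protein genes also have many processed pseudogenes in the mouse genome, and probe sets can share sequence with such copies.

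The deposited values are log values, taken as log2, set against a probe set baseline that is not stated, so they give no expression level. A value of 0 marks that baseline, and the difference between the arrays, with IL-3 minus without IL-3, cancels it. The medians over all 28815 probe sets were -0.03 with IL-3 and -0.05 without IL-3. With 1 array per condition no test or standard error was possible, and the differences have no replicate check. The only error at hand was the spread between probe sets of the same gene, a pooled SD of 0.14 over 998 genes. It covers differences between probe sets within these arrays and leaves out variation between samples. Over the ribosomal protein genes alone it was 0.07. The B-lineage markers fixed for this cell type, of which 9 of 10 were measured, differed by between -0.35 (Cd79a) and 0.23 (Vpreb2), and baseline-relative values cannot show whether they were expressed. The 7 mast cell and basophil markers held 2 genes and the 7 granulocyte markers 3 genes at least 2-fold lower with IL-3, against 0.657% of all genes, with differences down to -2.46 for Fcer1a and -2.87 for Ngp. On the other side, Kit differed by 0.18, S100a9 by 0.38, Mpo by 0.17 and S100a8 by 0.16. The markers' part in the ribosomal protein differences was not tested.

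The ribosomal protein genes were slightly lower with IL-3 than without it. Of the 63 members, 49 had a difference below 0, against 40.1% of all genes, and the median was -0.10 against 0.04 over all genes. The size was small throughout, with 0 members at least 2-fold higher, a background of 0.441%, and 0 at least 2-fold lower, a background of 0.657%. The differences ran from -0.36 for Rps3a1 to 0.69 for Rps27l, and the quartiles of the members were -0.19 and -0.02. With IL-3, 22 members were lower by more than the probe set SD, as were 17.1% of all genes, and 4 were higher by more than it, as were 26.9% of all genes. The other members lay within this SD, which leaves out variation between samples. With all genes in order, 36 members (57.1%) lay below their lower quartile of -0.08 and 4 above their upper quartile of 0.16.

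In the probe sets used, ribosomal protein values lay mostly above the baseline in both arrays, and more so in the one without IL-3. There, 54 of 63 genes exceeded 0, against 43.4% of all genes, and the median over all 63 was 0.17. With IL-3 45 exceeded 0, against 45.3% of all genes, and the median was 0.09. The corresponding medians over all genes were -0.04 without IL-3 and -0.02 with IL-3. Taking the probe set with the highest average favours values above the baseline where a gene has several. Several were present for 39 of the 63 members, but for only 998 of all 19935 genes. The members and all genes are thus not compared like for like, and whether the family as such lay above the baseline was not tested. The arrays' values overlapped widely across members.

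**Figure D1:**
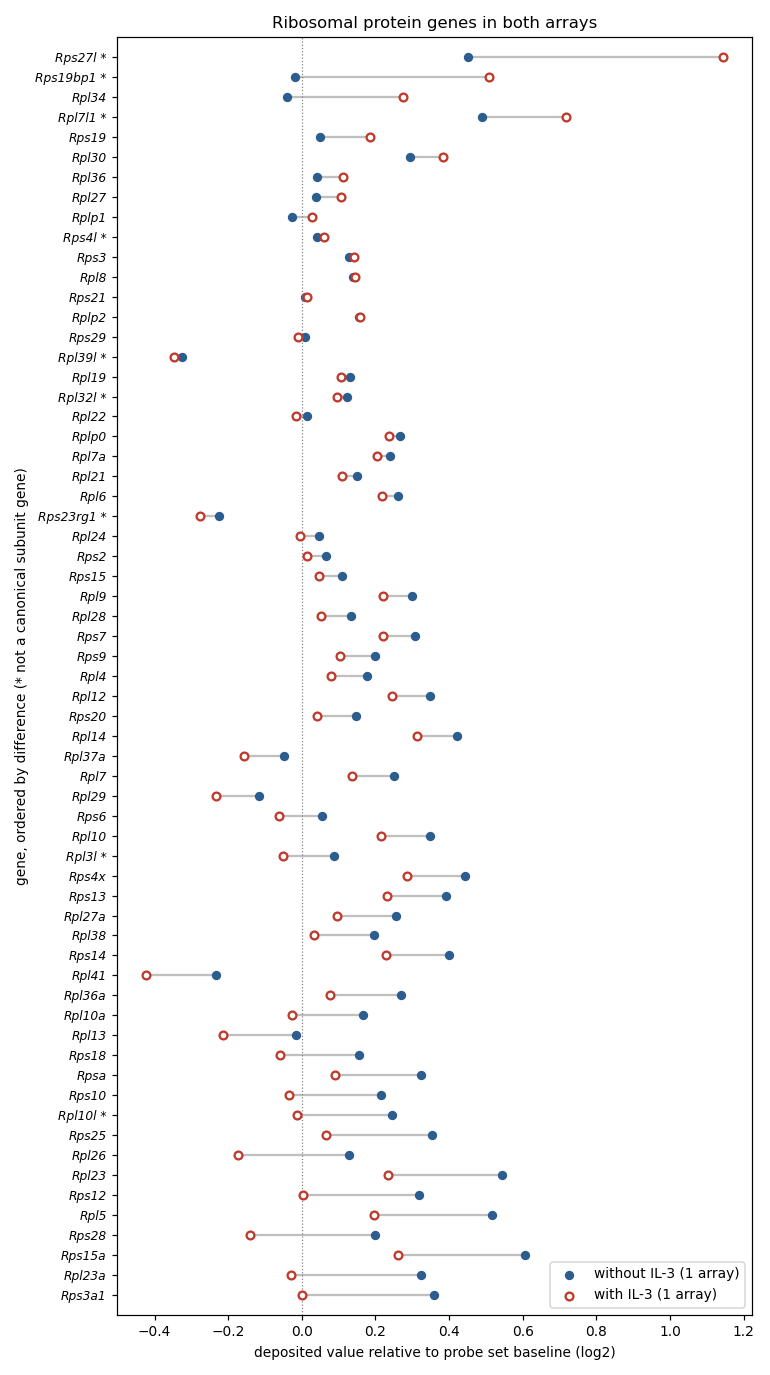
Deposited log2 value relative to the probe set baseline (x axis) of the 63 ribosomal protein genes (y axis, ordered by difference) in the array with IL-3 (open circles) and the array without IL-3 (filled circles), with grey lines joining the values of a gene. The open circle lies to the left in 49 genes, and the widest gap to the right is that of Rps27l, a gene outside the canonical subunits.

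Over the 54 canonical subunit genes alone, 44 were below 0 and the median was -0.11. The small subunit had 18 of 21 genes below 0 and a median of -0.16, and the large subunit 26 of 33 and a median of -0.10. With Rps23rg1 and Rpl32l, which the symbol lists of the subunits also hold, the medians were -0.14 and -0.091. The difference between the subunits was not tested. In the probe sets used, which have the highest average, all 21 small subunit genes were above the baseline without IL-3, against 43.4% of all genes. With IL-3 16 of them were, against 45.3% of all genes. This choice of probe set favours values above the baseline, so these shares are not like for like. Some unused probe sets of Rps28, Rps6, Rps21 and Rps29 lay below the baseline without IL-3, down to -0.16, -0.14, -0.09 and -0.02.

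Among the small subunit genes, Rps3a1, which encodes a protein at the mRNA exit side of the subunit, had the lowest difference of all members. Its value was 0.0003 with IL-3 and 0.36 without, which is 1.28-fold lower with IL-3, and it rests on 1 probe set. Rps15a was at 0.26 with IL-3 and 0.61 without, a difference of -0.34. Rps28, a small protein near the mRNA exit, was at -0.14 with IL-3 and 0.20 without, also a difference of -0.34. In the probe sets used, these genes lay above their baseline without IL-3 and nearer to it or below it with IL-3. Rps12 was at 0.002 against 0.32, a difference of -0.32, and Rps25, known for its part in internal initiation on viral RNAs, was at 0.07 against 0.35, a difference of -0.29. Rps10 was at -0.03 with IL-3 and 0.21 without, a difference of -0.25. Rpsa, which also serves as a laminin-binding protein, was at 0.09 against 0.32, a difference of -0.23, and Rps18 was at -0.06 against 0.16, a difference of -0.21. In the probe sets used, all of these exceeded the probe set SD. Other probe sets of Rps28, Rps12, Rps25, Rpsa and Rps18 reached -0.10, -0.138, -0.11, -0.08 and -0.13, within this SD of 0.144.

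The other small subunit genes lay nearer to 0. Rps14, a platform protein known from the 5q- syndrome, differed by -0.17 (0.23 against 0.40), Rps13 by -0.16, and Rps4x by -0.16. Rps6, the substrate of the S6 kinases, differed by -0.12 (-0.06 with IL-3 against 0.06 without). Rps20 differed by -0.10, Rps9, which helps to shape the mRNA entry, by -0.09 (0.10 against 0.20), Rps7 by -0.09 (0.22 against 0.31), Rps15 by -0.06, Rps2, another protein of the mRNA entry, by -0.05 (0.01 against 0.07) and Rps29 by -0.02 (-0.01 against 0.01). Rps3, which lies at the mRNA entry, differed by 0.01 (0.14 against 0.13) and Rps21 by 0.004 (0.01 in both). Rps19, the gene most often mutated in Diamond-Blackfan anaemia, a failure of red cell production, was the small subunit gene with the highest difference, 0.13 (0.18 with IL-3 against 0.05 without). The list of mRNA entry and decoding proteins, with 3 of 5 measured, thus differed by -0.09 to 0.01, within the probe set SD, with a median of -0.05. The platform and exit list, with 4 of 6 measured, had a median of -0.20 and ran from -0.34 for Rps28 to 0.004 for Rps21. The gap between the lists was not tested.

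Among the large subunit genes, Rpl23a, the docking site of the signal recognition particle at the peptide exit, was at -0.03 with IL-3 and 0.32 without, a difference of -0.35. Rpl5, which with Rpl11 forms the 5S ribonucleoprotein particle that binds the p53 regulator MDM2, was at 0.20 against 0.52, a difference of -0.32, and it was the only measured gene of that pair. Rpl23, another protein known to bind MDM2, was at 0.23 against 0.54, a difference of -0.31. Rpl26 was at -0.17 against 0.13, a difference of -0.30. These 4 genes had the lowest differences of the large subunit. Of the ring around the peptide exit 3 of 6 genes were measured, and the remaining one, Rpl19, differed by -0.02 (0.11 against 0.13). Rpl13 differed by -0.20 (-0.21 with IL-3 against -0.02 without), Rpl10a by -0.19 (-0.03 against 0.17), Rpl36a by -0.19 (0.08 against 0.27) and Rpl41 by -0.19 (-0.42 against -0.23). Rpl38 and Rpl27a differed by -0.16 each.

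Between the probe set SD and 0 lay Rpl10, which completes the peptidyl transferase centre late in assembly, at -0.13 (0.22 against 0.35), Rpl4, which lines the exit tunnel, at -0.10 (0.08 against 0.18), and Rpl29, Rpl7, Rpl37a, Rpl14 and Rpl12, at -0.12 to -0.10. Rpl28, Rpl9, Rpl24, Rpl6, Rpl21, Rpl7a and Rpl22 were between -0.08 and -0.03. In the probe sets used, the P stalk, which recruits elongation factors to the large subunit, differed least of the fixed role lists with 2 or more genes measured. Its base Rplp0 was at 0.24 with IL-3 and 0.27 without, Rplp1 was at 0.03 and -0.03, and Rplp2 was at 0.16 in both, with differences of -0.03, 0.05 and 0.0008. The other probe set of Rplp1 was at -0.15 with IL-3 and -0.02 without, a difference of -0.12. Rpl8 differed by 0.01. Rpl27 was at 0.11 with IL-3 and 0.04 without, a difference of 0.07, Rpl36 had the same rounded values, and Rpl30 was at 0.38 against 0.29, a difference of 0.09.

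Rpl34 was the only canonical gene above 0 by more than the probe set SD. It was at 0.27 with IL-3 and -0.04 without, 1.24-fold higher, and has 1 probe set. The genes of the Diamond-Blackfan anaemia list, with 8 of 16 measured, had a median of -0.17. They spanned the range from Rps28 at -0.34 to Rps19 at 0.13. Of the 8, 6 were below 0, as were 49 of the 63 members and 40.1% of all genes. The ribosomal protein gene Fau, which goes by another symbol and so is no member, was at -0.05 with IL-3 and 0.21 without, a difference of -0.27.

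The 9 members outside the canonical subunits had an SD over genes of 0.32, near the 0.29 of all genes. The 54 canonical genes were spread less, with an SD of 0.14. The 9 held 3 of the 4 members above the positive probe set SD, a level that 26.9% of all genes exceeded. Of the 9, 7 were on the paralog list fixed for this work, and Rps23rg1 and Rpl32l were set apart after their values were seen. Rps27l, a paralog of Rps27 known as a p53 target gene, had the highest difference of all members. It was at 1.14 with IL-3 and 0.45 without, 1.62-fold higher with IL-3. Rps19bp1, which encodes a protein that binds Rps19 and the deacetylase SIRT1 and is not a ribosomal protein, was at 0.51 against -0.02, 1.44-fold higher. Rpl7l1, a paralog of Rpl7, was at 0.72 against 0.49, a difference of 0.23. These were higher with IL-3, in contrast to most canonical genes, and each has 1 probe set. After a trend on the mean value was subtracted, Rpl7l1 was at 0.09, within the probe set SD.

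The other paralogs did not stand on that side. Rpl10l, an autosomal retrogene of Rpl10 known from the testis, was at -0.01 with IL-3 and 0.24 without, a difference of -0.26, and its canonical relative Rpl10 differed by -0.13. Rpl3l, a form of Rpl3 known from striated muscle, was at -0.05 against 0.09, a difference of -0.14. Rpl39l, another paralog known from the testis, differed by -0.02 (-0.35 against -0.33) and Rps4l, a transcribed pseudogene per RefSeq, by 0.02 (0.06 against 0.04). Its relative Rps4x differed by -0.16, and Rpl7, the relative of Rpl7l1, by -0.12. Rps23rg1 differed by -0.05 (-0.28 against -0.23) and Rpl32l by -0.02 (0.10 against 0.12). Probe sets of a retrogene and of its near-identical parent gene may read each other's transcripts, so these values are uncertain.

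The regions around the starts of the members at both ends of this order are shown because TOP tracts and shared promoter motifs are the features for which the family is known. The sequences are from RefSeq on GRCm38.p6, from 100 bases before to 30 bases after the most upstream annotated start. Those shown are the canonical genes with the lowest and the highest differences among those with an entry, and Rps27l, chosen after its value was seen; Rpl23a has no entry. Capitals mark unbroken runs of at least 8 C or T bases and matches on either strand to any of 6 motifs, CTCTTTC (a pyrimidine motif, which on the opposite strand reads as purines and is then no TOP tract), CCGGAAG (the core bound by ETS factors), TCTCGCGA (a palindrome-like promoter element), AAGATGGC (the YY1 core), CACGTG (the E-box bound by MYC) and TATAAA (the TATA box).
Rps3a1 (chr3:86142639-86142768, minus strand): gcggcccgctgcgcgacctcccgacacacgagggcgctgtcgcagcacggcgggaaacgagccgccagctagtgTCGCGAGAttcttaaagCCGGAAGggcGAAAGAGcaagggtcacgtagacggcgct
Rps15a (chr7:118116118-118116247, minus strand): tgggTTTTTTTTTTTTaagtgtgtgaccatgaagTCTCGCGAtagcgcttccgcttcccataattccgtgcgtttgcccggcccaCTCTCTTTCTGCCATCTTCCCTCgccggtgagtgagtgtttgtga
Rps19 (chr7:24884492-24884621, plus strand): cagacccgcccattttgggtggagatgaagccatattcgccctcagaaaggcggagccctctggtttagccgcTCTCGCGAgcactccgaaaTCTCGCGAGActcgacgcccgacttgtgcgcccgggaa
Rpl34 (chr3:130730369-130730498, minus strand): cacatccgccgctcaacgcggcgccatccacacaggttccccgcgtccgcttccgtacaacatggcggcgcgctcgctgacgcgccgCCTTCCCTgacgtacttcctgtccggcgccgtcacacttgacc
Rps27l (chr9:66945986-66946115, plus strand): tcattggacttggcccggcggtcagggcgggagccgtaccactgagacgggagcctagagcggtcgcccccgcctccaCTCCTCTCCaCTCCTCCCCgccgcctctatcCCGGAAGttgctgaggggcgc
Rps15a carries a pyrimidine run across its annotated start and Rps19 carries overlapping copies of TCTCGCGA there. Rps3a1 has a CCGGAAG match just before its start, and Rps27l has one just after it. The annotated starts need not be the sites used in these cells.

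A promoter window of 300 bases, 250 before and 50 after the start, was at hand for 51 of the 63 members and for 43 of the 54 canonical genes, and the same windows of 27025 genes gave the background. CCGGAAG occurred in 16 of the 43 (37.2%) against 9.14% of all genes, TCTCGCGA in 9 (20.9%) against 1.09%, and CTCTTTC, on either strand and anywhere in the window, in 11 (25.6%) against 8.06%. A run of at least 8 C or T bases within 40 bases of the start, on the sense strand, occurred in 26 (60.5%) against 29.2%. CACGTG was found in 4 (9.30%) against 7.24%, TATAAA in 5 (11.6%) against 14.2%, and AAGATGGC in 2 (4.65%) against 2.87%. The windows of the canonical genes thus held the ETS core, the TCTCGCGA element and the pyrimidine run near the start at higher shares than those of all genes. Canonical genes with and without CCGGAAG had medians of -0.16 and -0.10, those with and without TCTCGCGA -0.16 and -0.10, those with and without CTCTTTC -0.19 and -0.11, and those with and without the pyrimidine run -0.11 and -0.13. These gaps were not tested, and a match shows that the letters are present and not that a factor binds.

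The lower values with IL-3 were seen in most probe sets of the family and not only in those used. Of the 218 member probe sets, 193 (88.5%) were below 0, with a median of -0.14, against 40.6% of all probe sets with a single gene. Among the 39 members with more than 1 probe set, all probe sets were below 0 in 32 (82.1%), all were above 0 in 1, Rps4l, and 6 had both signs. Among 959 other genes with more than 1 probe set, all were below 0 in 27.7%. Rps12 and Rpl23a had the most probe sets, 13 each, all below 0, from -0.46 to -0.14 in Rps12 and from -0.35 to -0.13 in Rpl23a. The 5 probe sets of Rpl5 lay between -0.33 and -0.29 and the 9 of Rpl13 between -0.21 and -0.14. The pooled SD between probe sets of the same member was 0.07. Probe sets of a ribosomal protein gene list the same transcripts in the platform annotation and may share probes or read the same mRNA, so they are not independent.

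Several genes depended on the probe set. Rpl21 was at -0.04 in the probe set used and ranged from -0.47 to -0.04 over 9. Rps21 was at 0.004 in the one used (0.01 in both arrays) and at -0.41 in the other (-0.50 with IL-3 against -0.09 without). Rpl24 was at -0.05, -0.06 and -0.31 in its 3 probe sets, and Rps28 ranged from -0.43 to -0.10 over 7. In Rpl21, Rps21 and Rpl24 the probe set used gave the difference nearest to 0 of the gene's probe sets. Of the probe sets that list several genes, 239 include a symbol of the family, and 217 of these (90.8%) were below 0, with a median of -0.13 and a range of -0.84 to 0.42, against 53.2% of all probe sets with several genes.

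**Figure D2:**
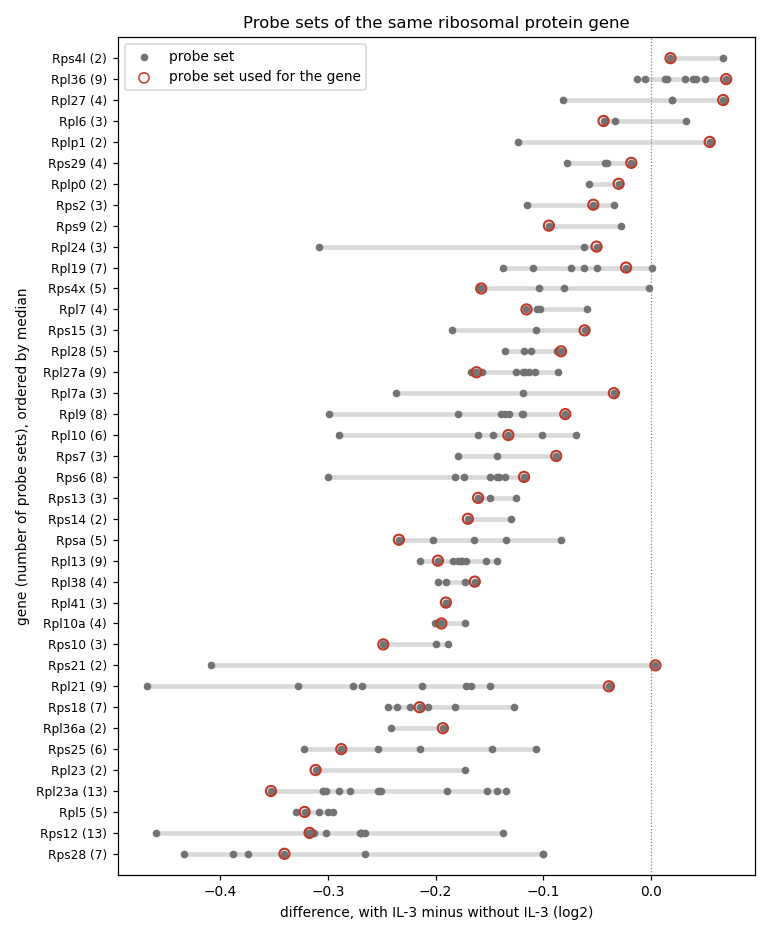
Difference with IL-3 minus without IL-3 on the log2 scale (x axis) of every probe set (grey points) of the 39 ribosomal protein genes with more than 1 probe set (y axis, number of probe sets in parentheses), with red circles on the probe set used for the gene. In 32 genes every point lies left of 0, and Rpl21 and Rps21 show the widest spread.

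The neighbouring parts of the translation machinery were compared next, from lists fixed for this work. The mitochondrial ribosomal protein genes, which build the separate ribosome of mitochondria, lay on the other side of 0. Of 77 measured, 6 were below 0 and the median was 0.38, against 49 of 63 and -0.10 for the cytosolic members. Over all genes 40.1% were below 0 and the median was 0.04. The lowest mitochondrial genes were Mrps36 at -0.35, Mrpl32 at -0.12 and Mrpl24 at -0.10. The highest were Mrpl42 at 1.14 (1.58 with IL-3 against 0.44 without), Mrps28 at 1.05 (0.89 against -0.16) and Mrpl18 at 0.86, and the first 2 passed 2-fold. The direction of both families was the same under centring, quantile normalization and subtraction of a trend on the mean value, where the mitochondrial median was 0.37, 0.29 and 0.26 and the cytosolic median -0.11, -0.09 and -0.10. No test of the contrast was possible with 1 array per condition.

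Factors that assemble ribosomal subunits and carry them out of the nucleus were also mostly above 0, with 29 of 37 measured genes and a median of 0.34. Below 0 were 8 of the 37, against 40.1% of all genes. After the trend was subtracted the median became 0.12 and 14 of the 37 were below 0, against 48.9% of all genes. The highest were Ipo5, an importin that carries ribosomal proteins into the nucleus, at 0.74 (1.38 with IL-3 against 0.64 without), Mrto4, which holds the place of the stalk protein in early large subunits, at 0.72 and Bop1, a pre-rRNA processing factor, at 0.71. The lowest were Zfp622, a late large subunit factor, at -0.60 (0.06 against 0.66), the kinase gene Riok3 at -0.48 and Nsa2 at -0.36. None of the 37 passed 2-fold. The 2 groups of proteins thus had medians on different sides of 0, the ribosomal proteins themselves below it and their assembly factors above it.

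Translation factors and other genes whose mRNAs are known to carry TOP tracts lay between the ribosomal protein genes and all genes. Of 19 measured, 13 were below 0, against 40.1% of all genes. Their median was -0.03, against -0.10 for the ribosomal protein genes and 0.04 over all genes. The lowest were Eif3f at -0.44 (0.38 with IL-3 against 0.82 without) and Eif3e at -0.33, subunits of initiation factor eIF3, and Btf3 at -0.30, a subunit of the nascent chain-associated complex. The highest were Vim, which encodes vimentin, at 0.49, Eif2s3x, a subunit of initiation factor eIF2, at 0.48, and Eef1d, an elongation factor subunit, at 0.42. The elongation factor genes Eef1a1, Eef1b2 and Eef2 differed by -0.03, -0.03 and -0.01. Of the 19, 6 (Eif3f, Eif3e, Btf3, Naca, Tpt1 and Eif3h) were below 0 by more than the probe set SD, as were 17.1% of all genes, and 5 (Vim, Eif2s3x, Eef1d, Eif3l and Npm1) were above 0 by more than it, as were 26.9% of all genes.

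The genes of mTORC1, the S6 kinases and the LARP proteins, which act on TOP mRNAs or on ribosomal protein Rps6, went both ways. Of 17 measured, 7 (41.2%) were below 0, near the 40.1% of all genes. The median of the list was 0.07, against 0.04 over all genes. It turned to -0.02 after quantile normalization and to -0.06 after the trend was subtracted. Over the genes that were not below the array median in any array it was -0.01. Eef2k, the kinase that inhibits elongation factor eEF2 and is switched off by S6 kinase, was the only gene of the list past 2-fold, at 0.46 with IL-3 and 1.53 without, 2.09-fold lower with IL-3. Pdcd4, an inhibitor of the initiation helicase that S6 kinase marks for breakdown, was at 0.54 against 1.09, a difference of -0.56, and Eif4ebp2, a repressor of cap binding, differed by -0.27. On the other side, Eif4ebp1, which also encodes a repressor of cap binding, was at 0.49 against 0.21, a difference of 0.29. Rps6kb2, which encodes an S6 kinase, was at 0.19 against -0.24, a difference of 0.43, and Mtor and Larp1 differed by 0.32 each.

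**Figure D3:**
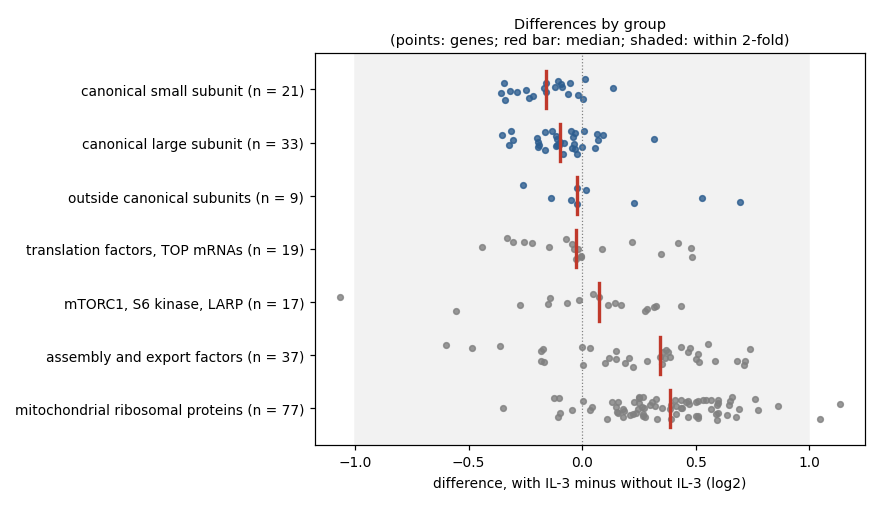
Difference with IL-3 minus without IL-3 on the log2 scale (x axis) of each gene (points) by group (y axis), with ribosomal protein genes in blue, other lists in grey, red bars at the medians and shading over the range within 2-fold; TOP stands for terminal oligopyrimidine. The medians of the small and large subunit genes, -0.16 and -0.10, lie left of 0 and those of the assembly factors and mitochondrial ribosomal proteins, 0.34 and 0.38, lie right of it.

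**Figure D4:**
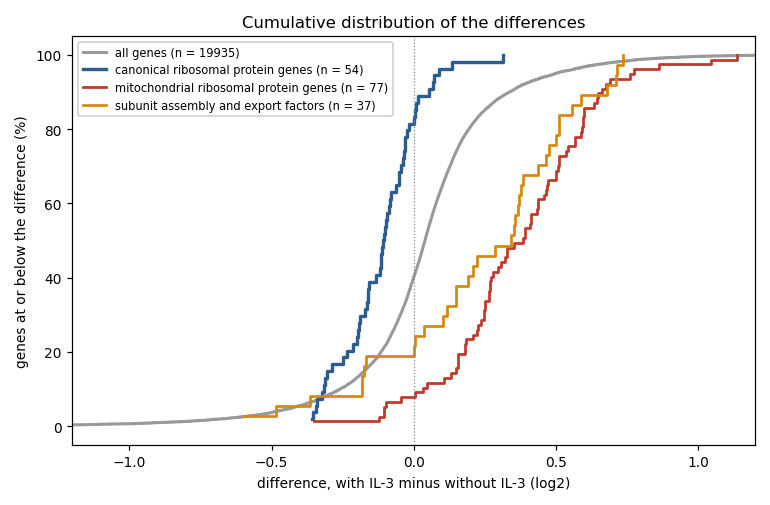
Share of genes in percent (y axis) at or below each difference with IL-3 minus without IL-3 on the log2 scale (x axis), for all 19935 genes, the 54 canonical ribosomal protein genes, the 77 mitochondrial ribosomal protein genes and the 37 assembly and export factors. The axis is limited to near 2-fold on both sides, and the curve of the canonical ribosomal protein genes reaches 81.5% below 0, where that of all genes is at 40.1%.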

How the data were processed

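RNA of the 2 samples was labelled with biotin and hybridised to Affymetrix Gene 1.0 ST arrays, per the labels' protocols. The deposited log2 values, 1 per probe set and array, refer to a baseline subtracted for each probe set: in 1760 of them (6.11%) both values were equal and opposite within 1e-05. Which log base, summarisation, normalization and baseline were used is not given in the sources used here; with natural logs the folds printed would be too small. Higher values were taken to mean higher expression.

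Of the probe sets, 21780 name 1 gene in the platform annotation, 1605 several and 5430 none. For Rps29, 2 probe sets tied at a mean of 0. Differences, medians and counts were computed without a filter (pandas 2.3.3) and tested on simulated data. The members, lists and motifs were chosen with earlier results of these data known. All members may be named; of other lists, the 3 highest and 3 lowest genes and any past 2-fold, and further ones after their values were seen. The alternatives were centring, quantile normalization, subtraction of a lowess trend (statsmodels 0.14.6, fraction 0.3), other probe set choices, a filter at the array medians, the log base and swapped labels.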

Additional observations from a re-analysis of the deposited data

How the results depend on the processing

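No paired analysis was possible because each condition has 1 array, and for the same reason no array could be left out. Over the alternatives that keep the labels, the median of the ribosomal protein genes left (51 under the filter, 70 with several-symbol probe sets, otherwise 63) was between -0.14 and -0.08. The share of members below 0 was between 72.5% and 84.1%, and that of all genes between 39.9% and 48.9%. With both labels swapped, which the conflicting description leaves possible, every sign turns. The ribosomal protein median became 0.10, with 14 members (22.2%) below 0, against 59.8% of all genes. The small and large subunit medians (Rps23rg1 and Rpl32l included) became 0.14 and 0.091, and the paralog median -0.018. The medians of the TOP, mTORC1, assembly and mitochondrial lists became 0.029, -0.074, -0.34 and -0.38. With values read as natural logs, 1 member, Rps27l, passed 2-fold, and the assembly and mitochondrial medians became 0.49 and 0.56. The assembly median was 0.12 with the lowess trend subtracted, when Rps27l was at 0.46 and Rpl7l1 at 0.09. The paralog median, 0.02 as reported, was 0.23 over the 5 genes not below the array median in any array, and -0.002 when probe sets with several symbols were used. With the probe set of lowest mean, Rpl23a and Rps12 were at -0.14. The number of arrays limits the precision.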
